A study of Chlorocebus sabaeus with 18 samples.

Results

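Genes of protein folding and degradation in the endoplasmic reticulum were followed across 6 groups of cultured COS-7 cells. The list holds 36 genes: 5 sensors and transcription factors, 17 chaperones and folding enzymes, 10 factors of degradation and 4 proteins of translocation, transport and the membrane. Each gene was read from the transcript cluster, the array's unit for a gene, that carried its symbol alone and had the highest mean log2 value. All 36 had such a cluster, among 135750 transcript clusters on the array. A test was made of 34 of them, since clusters with a mean at or below the median of all clusters (4.14 on the log2 scale) were left out. The remaining members were HSP90B1 and DERL3, with means of 4.02 and 3.91.

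Proteins of the secretory pathway fold in the endoplasmic reticulum with the help of chaperones and enzymes that form disulfide bonds. When unfolded proteins build up, the membrane sensors IRE1 (encoded by ERN1), PERK (EIF2AK3) and ATF6 start the unfolded protein response, in which IRE1 splices the XBP1 transcript and ATF6 is cut to free a transcription factor. XBP1 and ATF6 raise the transcription of chaperones and of factors of endoplasmic reticulum-associated degradation, which return misfolded proteins to the cytosol for the proteasome, while PERK slows translation and raises ATF4 and its targets.

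COS-7 is a line of green monkey (Chlorocebus sabaeus) kidney cells, and 100 ng of total RNA from each of 18 samples was hybridised to a Clariom D Human array, whose probes are human. With 3 arrays per group, the groups were cells given the FMR1 5' untranslated region with 60 CGG repeats (CGG cells), cells overexpressing the splicing regulator TRA2A, cells in which TRA2A was knocked down, CGG cells combined with either alteration of TRA2A, and controls. Such repeats are expanded in FXTAS, a late-onset movement disorder, and the study's title concerns the recruitment of TRA2A by RNA in that disease. GFP stands in the titles of overexpressing cells without CGG alone. No construct without the repeat, no control siRNA and no transfection of the controls is named, and the condition of the controls reads COS-7, COS-6 or COS-5 where their cell line reads COS-7. CGG array 1 and knockdown array 3 were hybridised again. Separate cultures are not stated, so p-values measure the spread between arrays, which may be technical. In RNA from a whole culture, a larger share of responding cells cannot be told apart from more RNA per cell.

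TRA2A moved with its labels. Against controls, its log2 change was 3.91 in overexpressing cells, -3.08 in knockdown cells, 2.54 in CGG cells with overexpression and -2.80 in CGG cells with knockdown. The 3 controls stood apart from the other 15 arrays on the first principal component (12.7% of the variance), at -79.5 to -30.7 against -10.7 to 36.2, and they are shared by all 5 comparisons with control. Brighter genes were on the whole higher in the other groups than in controls: among 16118 named genes with a mean above the 75th percentile of all clusters, the median log2 difference was 0.10 to 0.21, while over all 67854 clusters tested it was -0.01 to 0.01. All 7 kidney epithelial markers passed the filter, with means of 6.16 (KRT19) to 13.99 (KRT8), as did all 6 matched fibroblast markers, at 4.48 (THY1) to 15.86 (VIM). Of other cell types, 4 of 5 endothelial markers passed, up to 6.66 (VWF), 4 of 5 leukocyte markers, up to 6.20 (PTPRC), 2 of 4 erythroid markers, and 4 of 4 neuronal markers, up to 9.89 (SYT1), while CDH5, CD14, HBB and ALAS2 did not. The epithelial claudin CLDN4 rose by 2.16 in CGG cells, 2.55 with knockdown and 2.47 in CGG cells with knockdown, the renal factor PAX8 fell by 1.09 with knockdown and by 1.14 in CGG cells with knockdown, VIM rose by 0.68 with overexpression, and no other marker was called. The mean of the 6 fibroblast markers was 8.88 to 9.12 in CGG arrays, against 9.20 to 9.52 in controls, and HBA1 and HBA2, whose near-identical sequences probes may share, had a median difference of 0.91 in CGG cells with neither called. This median was 0.71 with overexpression, 0.75 with knockdown, 0.60 in CGG cells with overexpression and 0.72 in CGG cells with knockdown. The part of these differences in the results below was not tested.

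Against controls, several chaperones and the degradation factor HERPUD1 rose in each of the 5 other groups, and no member fell, where 0.165% of all clusters tested fell in CGG cells, 0.298% with overexpression, 0.42% with knockdown, 0.159% in CGG cells with overexpression and 0.298% in CGG cells with knockdown. A call is an adjusted p under 0.05, two-sided, in limma's moderated test over all clusters tested. In CGG cells, 7 of 34 members rose (20.6%), where 0.504% of all clusters tested and 1.61% of the bright named genes rose. In overexpressing cells, 7 rose, against 0.949% of all clusters and 3.13% of bright genes. With knockdown, 8 rose (23.5%), against 1.13% and 3.98%. CGG cells with overexpression had 10 risen members (29.4%), against 0.732% and 2.49%. In CGG cells with knockdown, 7 rose, against 0.682% and 2.4%. The members were chosen with earlier results of these data known, so these shares describe the list and do not test it. With the variance taken from the compared arrays alone, most of the members' calls ended: DNAJB9 was left in CGG cells, in overexpressing cells and in knockdown cells, HSPA5 and PDIA4 in CGG cells with overexpression, and DNAJB9 and HERPUD1 in CGG cells with knockdown. Calls over all clusters, in either direction, also went down. They were 55, 33, 135, 40 and 87 in the 5 groups, against 454, 846, 1049, 605 and 665 in the main run.

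Most of the other members also lay above controls without passing the test. The median log2 difference of the 34 was 0.52 in CGG cells, 0.53 with overexpression, 0.51 with knockdown, 0.58 in CGG cells with overexpression and 0.62 in CGG cells with knockdown. The same over the bright named genes was 0.10, 0.19, 0.15, 0.21 and 0.12. All 3 arrays of a group lay above all 3 controls for 22 members in CGG cells, 23 with overexpression, and 24 in each of the other groups. Over all clusters tested this held for 7.37%, 10.5%, 9.05%, 10.5% and 8.22% in the same order of groups, and over bright named genes for 15.2%, 24.7%, 20.3%, 25.3% and 17.7%. An unadjusted p under 0.05 was met by 24 to 26 members in these comparisons. The share over all clusters was not counted at this threshold, so these counts have no baseline. Averaged over the members, an array gave 11.48 to 11.77 outside the controls, against 10.87, 10.99 and 11.15 in controls, and no array of another group reached a control.

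**Figure D1:**
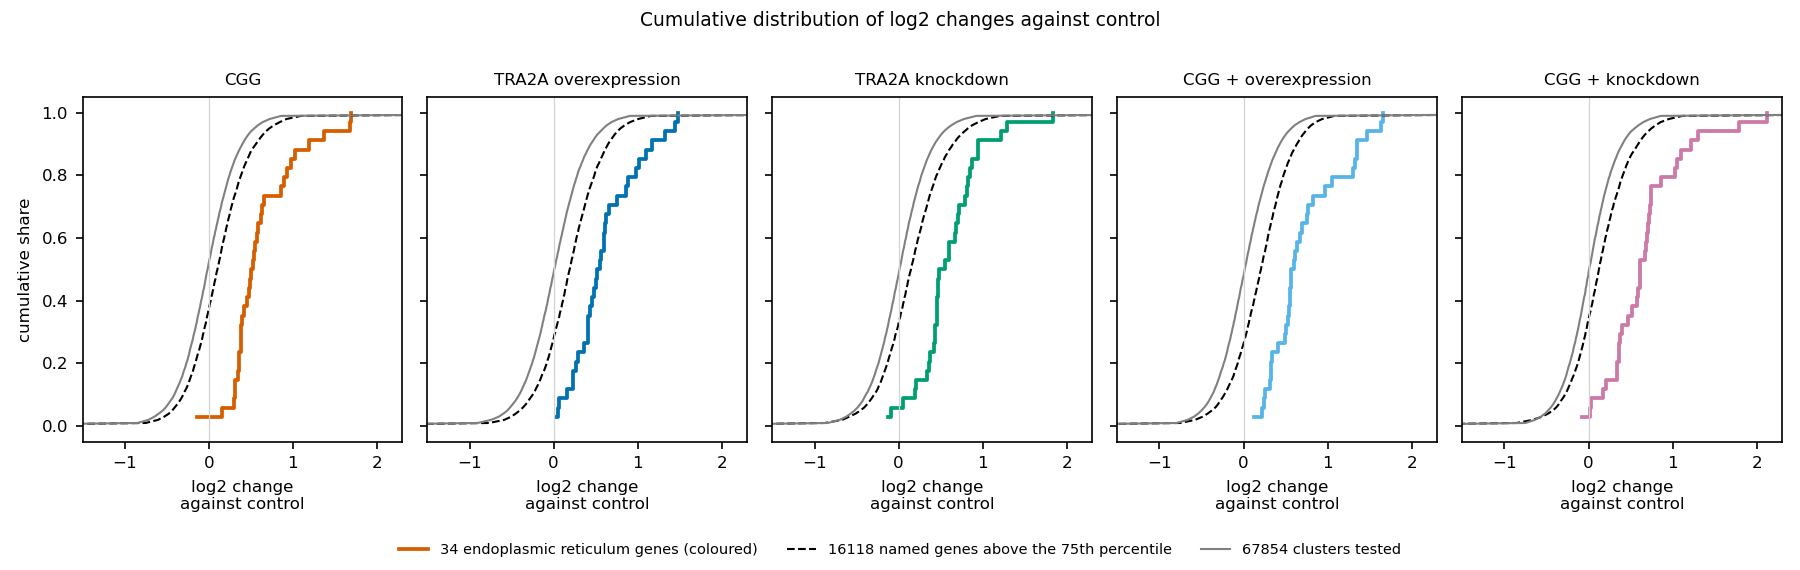
Cumulative share of log2 changes against control in each of the 5 other groups: the coloured line is the 34 members tested, the dashed line 16118 bright named genes and the grey line all 67854 clusters tested. The coloured line lies to the right of both others over nearly its whole length, with medians of 0.51 to 0.62.

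**Figure D2:**
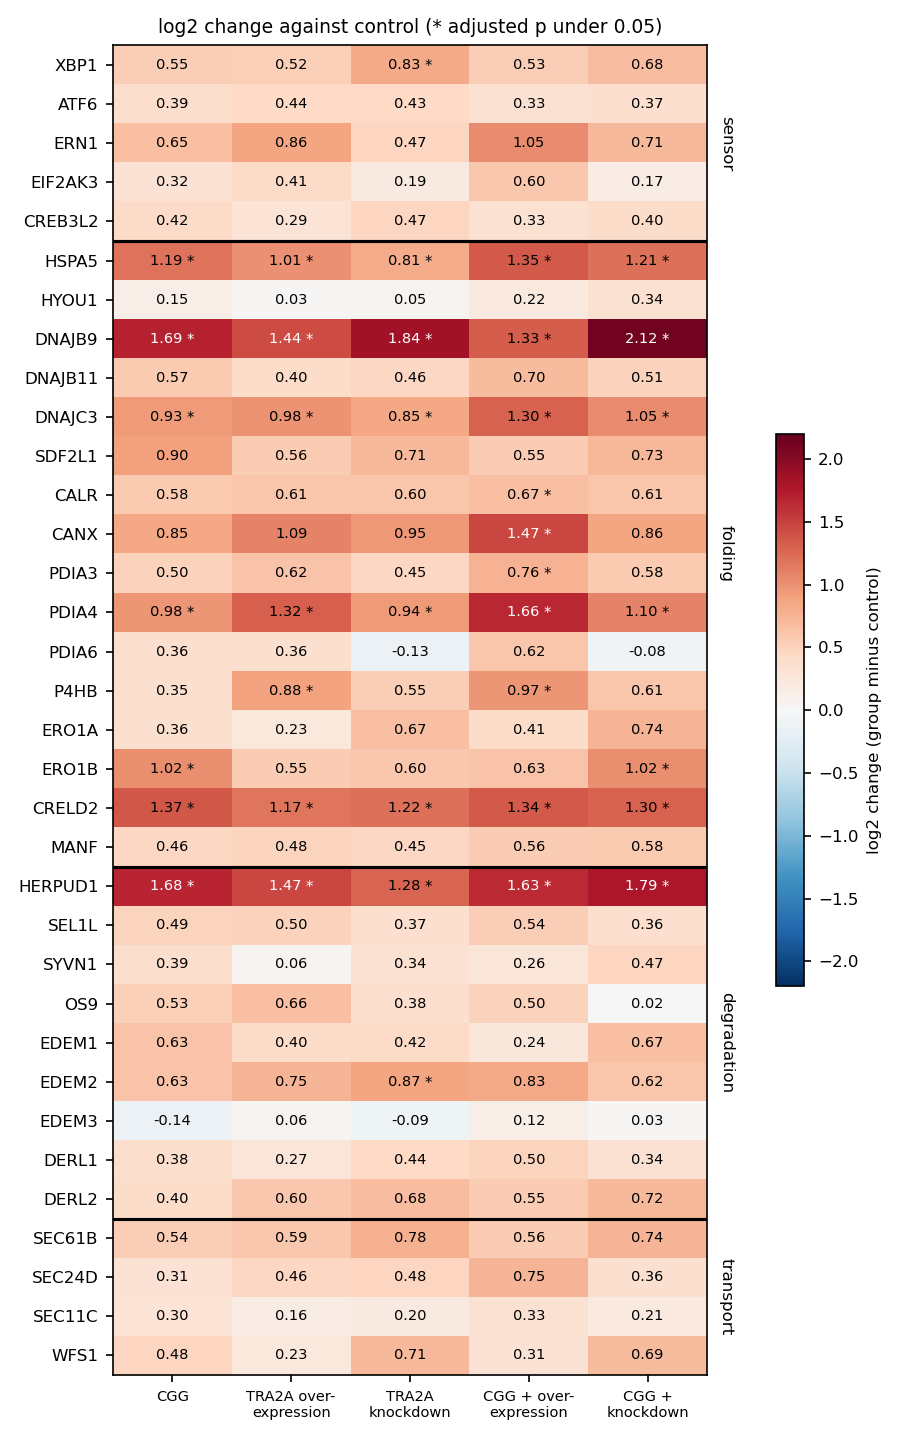
Log2 change of each member tested (rows, by role) in each of the 5 groups against control (columns), with an asterisk where the adjusted p was under 0.05. DNAJB9 and HERPUD1 have the deepest colours, and the few cells below 0 belong to PDIA6 and EDEM3.

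Of the sensors and factors, XBP1 alone was called in the main run, and in knockdown cells alone. XBP1 (TC2200008370.hg.1), the transcription factor made from the spliced message, read 7.01, 6.65 and 7.01 in CGG cells, 6.61, 6.92 and 7.05 in overexpressing cells, 7.10, 7.33 and 7.08 in knockdown cells, 6.77, 6.95 and 6.91 in CGG cells with overexpression and 7.06, 6.99 and 7.03 in CGG cells with knockdown, against 6.32, 6.15 and 6.56 in controls. Every array outside the controls was above the highest control. Its log2 change was 0.83 ± 0.17 SE with knockdown (limma, adjusted p = 0.0156), and this call was lost without control array 1 or 2 or knockdown array 2, with adjusted p up to 0.0674. Its difference was 0.55 in CGG cells, 0.52 with overexpression, 0.53 in CGG cells with overexpression and 0.68 in CGG cells with knockdown, with adjusted p of 0.0666 to 0.170. Whether the change with knockdown differs from these was not tested. Under a 75th percentile filter XBP1 also passed in CGG cells with knockdown (limma, adjusted p = 0.0272). With the variance of the compared arrays alone, its call with knockdown ended (limma, adjusted p = 0.188).

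At gene level, the stress sensors themselves were above controls by less than the test requires in the main run. ERN1, which encodes the sensor and nuclease IRE1, read 7.95, 7.43 and 8.09 in CGG cells, 8.11, 8.02 and 7.96 in overexpressing cells, 7.52, 7.75 and 7.65 in knockdown cells, 8.60, 7.81 and 8.24 in CGG cells with overexpression and 8.11, 7.86 and 7.66 in CGG cells with knockdown, against 6.55, 7.24 and 7.72 in controls. Control array 3 overlapped the CGG, knockdown and CGG with knockdown arrays, and the controls spanned more than a log2 unit. ERN1 differed by 1.05 ± 0.26 SE in CGG cells with overexpression (limma, adjusted p = 0.0611) and by 0.47 to 0.86 in the other groups. In CGG cells with overexpression it passed under a 75th percentile filter (limma, adjusted p = 0.0296) and a trended and robust variance (0.0391). ATF6, the sensor that becomes a transcription factor, read 13.56, 13.13 and 13.36 in CGG cells, 13.29, 13.51 and 13.40 in overexpressing cells, 13.40, 13.20 and 13.58 in knockdown cells, 13.35, 13.25 and 13.27 in CGG cells with overexpression and 13.25, 13.21 and 13.55 in CGG cells with knockdown, against 12.91, 12.91 and 13.07 in controls. All of its arrays outside the controls were above the highest control, by small amounts, and its differences of 0.33 to 0.44 had adjusted p of 0.208 to 0.427 in limma.

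EIF2AK3, the translation-regulating sensor PERK, read 9.50, 9.29 and 9.51 in CGG cells, 9.66, 9.59 and 9.34 in overexpressing cells, 9.41, 9.22 and 9.29 in knockdown cells, 9.78, 9.82 and 9.55 in CGG cells with overexpression and 9.19, 9.18 and 9.48 in CGG cells with knockdown, against 8.92, 8.89 and 9.54 in controls. Control array 3 was higher than 10 of the 15 other arrays. CREB3L2, a membrane-bound factor of the ATF6 type that is linked to secretory cargo, read 8.37, 8.11 and 8.24 in CGG cells, 8.09, 8.05 and 8.21 in overexpressing cells, 8.43, 8.35 and 8.10 in knockdown cells, 8.14, 7.90 and 8.42 in CGG cells with overexpression and 8.16, 8.46 and 8.04 in CGG cells with knockdown, against 7.51, 7.67 and 8.29 in controls, where control array 3 again overlapped the rest. The differences were 0.17 to 0.60 for EIF2AK3 and 0.29 to 0.47 for CREB3L2, with no call. The 23 exon-level features of EIF2AK3 bright enough to test gave lower values. Their median difference was -0.04 in CGG cells, 0.17 with overexpression and -0.11 with knockdown. It was 0.18 in CGG cells with overexpression and -0.04 in CGG cells with knockdown.

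The exon table holds 20 XBP1 features, 14 exon regions and 6 exon-exon junctions, and none is annotated to the stretch that IRE1 removes, so splicing by IRE1 was not measured. The gene-level log2 differences of XBP1 were smaller than those of most of its brighter features. In CGG cells the 20 features differed from controls by -0.87 to 1.44, and the 12 bright enough to test had a median of 0.89, where the gene level differed by 0.55. With knockdown the 12 had a median of 1.09. The exon region PSR2200159948.hg.1 had 12.88, 13.06 and 12.70 in CGG cells, 12.28, 12.48 and 12.57 in overexpressing cells, 12.98, 12.56 and 12.65 in knockdown cells, 12.41, 12.45 and 12.30 in CGG cells with overexpression and 12.70, 12.72 and 12.56 in CGG cells with knockdown, against 11.12, 11.61 and 11.58 in controls. All of its control arrays were lower than any other array. The junction JUC2200054337.hg.1 had 10.90, 11.82 and 11.07 in CGG cells, 10.68, 10.71 and 11.20 in overexpressing cells, 11.30, 11.96 and 11.30 in knockdown cells, 11.51, 10.87 and 10.55 in CGG cells with overexpression and 11.02, 11.15 and 11.55 in CGG cells with knockdown, against 9.82, 10.35 and 9.78 in controls, again with controls below all others.

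The brightest junction and the brightest exon region of XBP1 differed in direction. The junction JUC2200054339.hg.1, with a mean of 15.50, differed by 0.49 in CGG cells and 0.95 in knockdown cells. The exon region PSR2200159966.hg.1, with a mean of 15.37, read 14.85, 16.33 and 14.69 in CGG cells, 15.22, 15.71 and 15.58 in overexpressing cells, 15.52, 14.66 and 15.21 in knockdown cells, 15.72, 14.80 and 15.33 in CGG cells with overexpression and 15.62, 15.00 and 15.59 in CGG cells with knockdown, against 15.66, 15.74 and 15.44 in controls, and its groups overlapped, with differences of -0.48 to -0.11. Tested relative to the gene, as the feature's value after subtraction of the gene's own on each array, 0 of the 12 XBP1 features was called in any of the 5 comparisons by limma, where 0.595%, 0.212%, 0.316%, 0.255% and 0.368% of 223702 features were called in CGG cells, with overexpression, with knockdown, in CGG cells with overexpression and in CGG cells with knockdown. The trended and robust variance also gave 0. An unadjusted p under 0.05 was met by 4, 3, 2, 1 and 3 features in that order, with no share over all features counted. The lowest adjusted p in limma was 0.0930, for PSR2200159948.hg.1 in CGG cells.

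**Figure D3:**
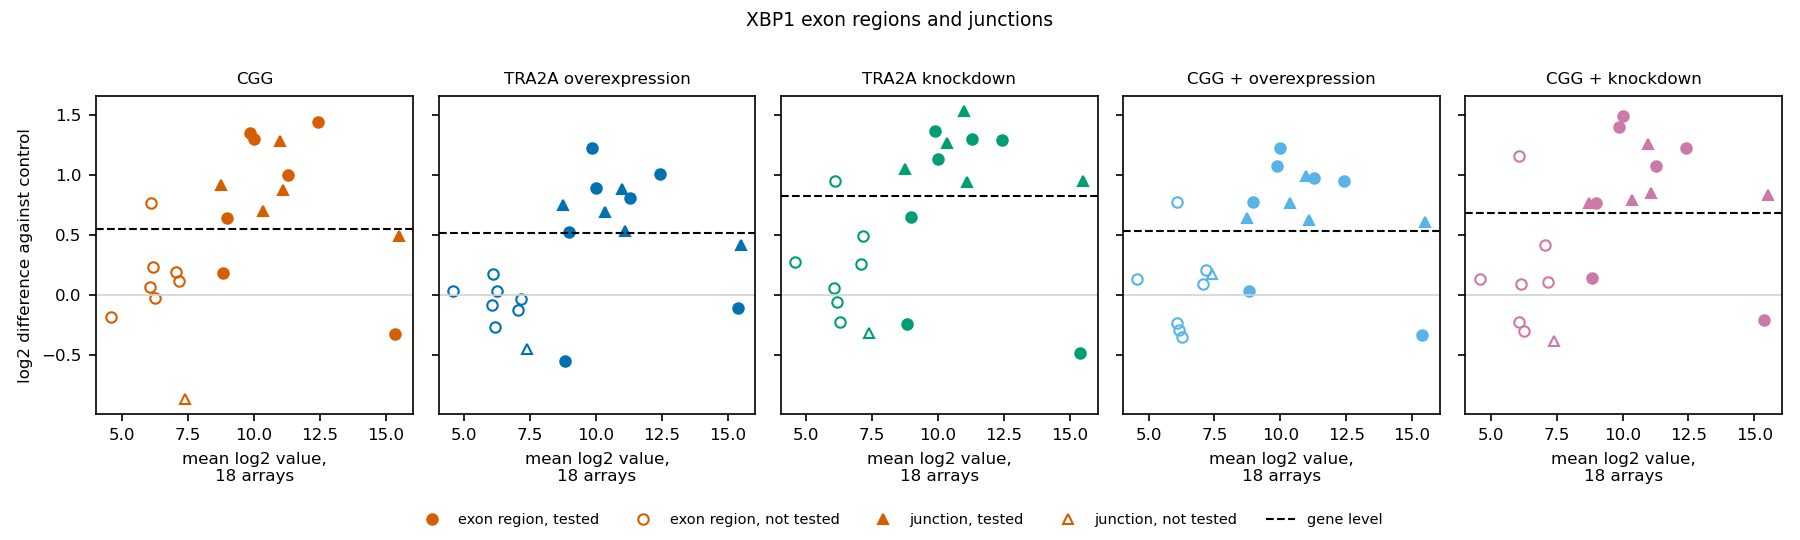
Log2 difference against control of each XBP1 exon region (circles) and junction (triangles) over its mean log2 value in 18 arrays, in each of the 5 groups; filled symbols were tested, and the dashed line is the gene-level difference. Features with means near 10 to 12 lie mostly above the dashed line, and the exon region near 15 lies below 0.

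Among chaperones, HSPA5 and its partners DNAJB9 and DNAJC3 rose in all 5 groups. HSPA5 (TC0900011523.hg.1), the chief Hsp70 chaperone of the endoplasmic reticulum, also called BiP, read 16.67, 16.69 and 16.71 in CGG cells, 16.53, 16.54 and 16.46 in overexpressing cells, 16.20, 16.15 and 16.57 in knockdown cells, 16.70, 16.88 and 16.96 in CGG cells with overexpression and 16.81, 16.52 and 16.80 in CGG cells with knockdown, against 15.56, 15.37 and 15.56 in controls. The lowest array outside the controls, at 16.15, was above the highest control, at 15.56. Its log2 changes were 1.19 in CGG cells, 1.01 with overexpression, 0.81 with knockdown, 1.35 in CGG cells with overexpression and 1.21 in CGG cells with knockdown, each ± 0.16 SE, with adjusted p of 0.000217 to 0.0110 (limma). These are 2.29-fold in CGG cells and 1.75-fold with knockdown, where the call was lost without knockdown array 3 (adjusted p = 0.0702).

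DNAJB9, also called ERdj4, a DNAJ partner of HSPA5 that helps clear misfolded proteins, changed most among the chaperones outside CGG cells with overexpression. It read 11.65, 11.74 and 11.80 in CGG cells, 11.41, 11.67 and 11.38 in overexpressing cells, 12.16, 11.51 and 11.98 in knockdown cells, 11.41, 11.21 and 11.49 in CGG cells with overexpression and 12.28, 12.23 and 11.98 in CGG cells with knockdown, against 10.22, 9.99 and 9.92 in controls. The lowest array outside the controls, 11.21 in CGG cells with overexpression, stood well above the highest control, 10.22. The log2 changes were 1.69 in CGG cells, 1.44 with overexpression, 1.84 with knockdown, 1.33 in CGG cells with overexpression and 2.12 in CGG cells with knockdown, each ± 0.18 SE, with adjusted p of 2.43e-06 to 0.00100 (limma), and no left-out array ended a call. In fold terms they run from 2.51 to 4.35.

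DNAJC3, the HSPA5 partner that also inhibits PERK, read 11.40, 11.12 and 11.76 in CGG cells, 11.49, 11.45 and 11.48 in overexpressing cells, 11.38, 11.12 and 11.54 in knockdown cells, 11.75, 11.84 and 11.80 in CGG cells with overexpression and 11.62, 11.51 and 11.49 in CGG cells with knockdown, against 10.23, 10.45 and 10.80 in controls. Its groups did not overlap the controls, of which array 3 was highest. The log2 changes were 0.93 in CGG cells, 0.98 with overexpression, 0.85 with knockdown, 1.30 in CGG cells with overexpression and 1.05 in CGG cells with knockdown, each ± 0.19 SE, with adjusted p of 0.00147 to 0.0222 (limma). The calls in CGG cells and in knockdown cells were each lost without any of 4 arrays, among them control arrays 1 and 2, with adjusted p up to 0.128, and the call with overexpression without any of 3 arrays, control array 1 and overexpression arrays 2 and 3. A term for rehybridised arrays also ended the calls in CGG cells and with knockdown (limma, adjusted p = 0.0502 and 0.0514).

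The other HSPA5 partners were not called. DNAJB11, which binds folding proteins for HSPA5, differed by 0.40 to 0.70, and SDF2L1, a component of the DNAJB11 complex, by 0.55 to 0.90, with the lowest adjusted p at 0.0544 and 0.0607 (limma). A second DNAJB11 cluster differed by -0.25 to 0.20, with no call. HYOU1, a large Hsp70-type chaperone that exchanges nucleotide on HSPA5, has 23 transcript clusters. The one with the highest mean has no mapped position, and its differences of 0.03 to 0.34 were not called. Of all 23, 22 were tested, with median differences of 0.41 in CGG cells, 0.33 with overexpression, 0.27 with knockdown, 0.68 in CGG cells with overexpression and 0.42 in CGG cells with knockdown, and 6, 9, 2, 9 and 6 of them rose. Of all clusters tested, 0.504%, 0.949%, 1.13%, 0.732% and 0.682% rose in that order. The cluster with a mapped position, taken up after the values were seen, read 12.04, 11.93 and 12.10 in CGG cells, 12.06, 11.94 and 12.10 in overexpressing cells, 11.73, 11.44 and 11.91 in knockdown cells, 12.22, 12.27 and 12.45 in CGG cells with overexpression and 11.84, 11.91 and 11.74 in CGG cells with knockdown, against 10.79, 11.10 and 11.38 in controls. Its changes were 0.93 in CGG cells, 0.94 with overexpression, 1.22 in CGG cells with overexpression and 0.74 in CGG cells with knockdown, all called, and 0.60 with knockdown, not called (limma, adjusted p = 0.0977).

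HSP90B1, the Hsp90 of the endoplasmic reticulum, was not tested under its own symbol. The bright cluster annotated to both HSP90B1 and the microRNA gene MIR3652, read after its values were seen, gave 17.89, 17.70 and 17.84 in CGG cells, 17.85, 17.65 and 17.97 in overexpressing cells, 17.35, 17.31 and 17.68 in knockdown cells, 17.96, 18.12 and 18.06 in CGG cells with overexpression and 17.56, 17.49 and 17.77 in CGG cells with knockdown, against 16.69, 17.26 and 17.10 in controls. Against controls it differed by 0.79 in CGG cells, 0.81 with overexpression and 1.03 in CGG cells with overexpression, with adjusted p of 0.0422, 0.0293 and 0.00786 (limma). With knockdown it differed by 0.43, and in CGG cells with knockdown by 0.59, with no call.

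The lectin chaperones CALR and CANX, which hold glycoproteins while they fold, rose by the test in CGG cells with overexpression. CALR, calreticulin, read 17.77, 18.14 and 17.88 in CGG cells, 17.78, 18.12 and 17.99 in overexpressing cells, 18.03, 17.83 and 18.00 in knockdown cells, 17.96, 18.05 and 18.05 in CGG cells with overexpression and 17.99, 17.86 and 18.04 in CGG cells with knockdown, against 17.33, 17.32 and 17.40 in controls. Its controls lay closely together and below all other arrays. The log2 change of CALR was 0.67 ± 0.15 SE in CGG cells with overexpression (limma, adjusted p = 0.0452), beside 0.58 to 0.61 with adjusted p of 0.0563 to 0.0990 in the other groups. CANX, the membrane-bound calnexin, read 12.56, 12.92 and 12.61 in CGG cells, 12.79, 13.26 and 12.76 in overexpressing cells, 12.40, 12.57 and 13.40 in knockdown cells, 13.07, 13.56 and 13.30 in CGG cells with overexpression and 12.85, 12.31 and 12.96 in CGG cells with knockdown, against 11.94, 11.22 and 12.37 in controls. Control array 3 was above 1 array of CGG cells with knockdown, and the controls spread over more than a log2 unit. CANX changed by 1.47 ± 0.29 SE in CGG cells with overexpression (limma, adjusted p = 0.0189). Both calls were lost without any of 5 of the 6 arrays compared, with adjusted p up to 0.150 for CALR and 0.0900 for CANX, and that of CALR with a term for rehybridised arrays (0.0509).

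Of the disulfide isomerases, PDIA4 was called in each comparison with control. PDIA4, an isomerase that works with HSPA5, read 10.66, 10.87 and 11.15 in CGG cells, 11.21, 11.32 and 11.18 in overexpressing cells, 10.90, 10.59 and 11.09 in knockdown cells, 11.44, 11.66 and 11.64 in CGG cells with overexpression and 11.20, 10.80 and 11.04 in CGG cells with knockdown, against 9.71, 10.10 and 9.94 in controls. Its controls were below every other array. The log2 changes were 0.98 in CGG cells, 1.32 with overexpression, 0.94 with knockdown, 1.66 in CGG cells with overexpression and 1.10 in CGG cells with knockdown, each ± 0.18 SE, with adjusted p of 0.000127 to 0.0135 (limma). In CGG cells the call was lost without control array 1 or CGG array 3, and with knockdown without control array 1 or knockdown array 3. PDIA3, the isomerase that acts with calnexin and calreticulin, read 16.02, 15.87 and 15.92 in CGG cells, 15.88, 16.28 and 16.01 in overexpressing cells, 15.85, 15.77 and 16.04 in knockdown cells, 16.17, 16.30 and 16.11 in CGG cells with overexpression and 16.00, 15.96 and 16.08 in CGG cells with knockdown, against 15.27, 15.63 and 15.40 in controls. Control array 2 was the highest control and still below all other arrays. It changed by 0.76 ± 0.16 SE in CGG cells with overexpression (limma, adjusted p = 0.0276, lost without any of 4 arrays), and differed by 0.45 to 0.62 elsewhere.

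P4HB, protein disulfide isomerase itself, read 15.21, 15.35 and 15.36 in CGG cells, 15.55, 16.20 and 15.75 in overexpressing cells, 15.57, 15.29 and 15.64 in knockdown cells, 15.92, 15.88 and 15.98 in CGG cells with overexpression and 15.63, 15.49 and 15.56 in CGG cells with knockdown, against 14.69, 15.08 and 15.09 in controls. It was above controls in every array of the other groups. P4HB changed by 0.88 with overexpression and 0.97 in CGG cells with overexpression, each ± 0.18 SE, with adjusted p of 0.0206 and 0.0129 (limma), and each call was lost without any of 3 arrays. PDIA6, another isomerase, had no call, with differences of 0.36 in CGG cells, 0.36 with overexpression and 0.62 in CGG cells with overexpression, but -0.13 with knockdown and -0.08 in CGG cells with knockdown.

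The oxidases ERO1A and ERO1B pass electrons from the isomerases to oxygen. ERO1B read 8.69, 8.55 and 8.93 in CGG cells, 8.71, 7.93 and 8.12 in overexpressing cells, 8.45, 8.17 and 8.28 in knockdown cells, 8.37, 8.36 and 8.27 in CGG cells with overexpression and 8.57, 8.92 and 8.69 in CGG cells with knockdown, against 7.47, 7.83 and 7.81 in controls. Its arrays did not overlap the controls in any group, and 2 arrays of overexpressing cells lay closest. The log2 change was 1.02 in CGG cells and 1.02 in CGG cells with knockdown, each ± 0.20 SE, with adjusted p of 0.0167 and 0.0124 (limma), and each call was lost without control array 1 and without 1 further array, CGG array 3 and array 2 of CGG cells with knockdown. The difference was 0.55 to 0.63 in the other groups. ERO1A was bright at 16.05 to 17.67, with differences of 0.23 to 0.74 and no call.

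CRELD2, a secreted protein of the endoplasmic reticulum known to rise in the unfolded protein response, read 7.22, 7.08 and 7.76 in CGG cells, 6.97, 7.23 and 7.25 in overexpressing cells, 7.19, 6.90 and 7.50 in knockdown cells, 7.50, 7.07 and 7.40 in CGG cells with overexpression and 7.41, 7.18 and 7.24 in CGG cells with knockdown, against 5.67, 5.91 and 6.36 in controls. Its controls were below all other arrays. The log2 changes were 1.37 in CGG cells, 1.17 with overexpression, 1.22 with knockdown, 1.34 in CGG cells with overexpression and 1.30 in CGG cells with knockdown, each ± 0.22 SE, with adjusted p of 0.00347 to 0.0137 (limma), and the call with overexpression was lost without any of 3 arrays. With the variance of the compared arrays alone, all 5 calls ended (adjusted p of 0.0705 to 0.148). Its 7 exon-level features that were bright enough to test gave smaller differences, with a median of 0.20 in CGG cells, 0.43 with overexpression, 0.38 with knockdown, 0.04 in CGG cells with overexpression and 0.12 in CGG cells with knockdown, and 1 or 2 of them were called lower relative to the gene in each comparison. Of all features tested, 0.212% to 0.595% were called in these comparisons, in either direction. MANF, a secreted protective factor held in the endoplasmic reticulum, differed by 0.45 to 0.58 with no call.

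In the degradation class, HERPUD1 was called in each comparison. HERPUD1 (TC1600007982.hg.1), a membrane protein that gathers the ubiquitin ligase complex of degradation, read 12.61, 12.31 and 12.56 in CGG cells, 12.31, 12.34 and 12.21 in overexpressing cells, 12.22, 11.70 and 12.37 in knockdown cells, 12.37, 12.49 and 12.48 in CGG cells with overexpression and 12.66, 12.42 and 12.72 in CGG cells with knockdown, against 10.49, 11.47 and 10.48 in controls. Control array 2 stood about a log2 unit above the other controls and was still below every other array. The log2 changes were 1.68 in CGG cells, 1.47 with overexpression, 1.28 with knockdown, 1.63 in CGG cells with overexpression and 1.79 in CGG cells with knockdown, each ± 0.23 SE, with adjusted p of 0.000368 to 0.00569 (limma), and no left-out array ended a call, but with the variance of the compared arrays alone 4 of the 5 did not pass (adjusted p of 0.0801 to 0.161). All 23 of its exon-level features tested were above controls in CGG cells, with a median of 1.91. EDEM2, a mannosidase-family protein that marks glycoproteins for degradation, read 10.67, 10.93 and 11.00 in CGG cells, 10.80, 11.25 and 10.92 in overexpressing cells, 11.37, 10.86 and 11.09 in knockdown cells, 11.48, 10.79 and 10.94 in CGG cells with overexpression and 10.78, 10.66 and 11.13 in CGG cells with knockdown, against 10.05, 10.13 and 10.54 in controls. No group overlapped the controls, of which array 3 was highest. It changed by 0.87 ± 0.22 SE with knockdown (limma, adjusted p = 0.0494), and this call was lost without any of 5 of the 6 arrays compared, with adjusted p up to 0.233, and with a term for rehybridised arrays (0.0590).

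Around HERPUD1, the ligase and its partners showed smaller differences. SYVN1, the ubiquitin ligase of the complex, differed by 0.06 to 0.47, its scaffold SEL1L by 0.36 to 0.54, and OS9, a lectin that brings it substrates, by 0.02 to 0.66. EDEM1, a further mannosidase-family protein, differed by 0.24 to 0.67, while EDEM3 of the same family differed by -0.14 to 0.12, the least of the class. None of these was called. DERL1 and DERL2, membrane proteins of the channel through which substrates leave, differed by 0.27 to 0.50 and by 0.40 to 0.72, also without a call. The 21 tested features of DERL2 were uneven: in CGG cells they differed from controls by -1.67 to 2.49, and relative to the gene 3 were called, 2 of them higher. Of all features tested, 0.595% were called in CGG cells. DERL3, a relative more typical of secretory tissue, stayed at 3.54 to 4.31 in the 18 arrays and was not tested.

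The 4 members of translocation and transport had no call. SEC61B, a subunit of the translocation channel, differed by 0.54 to 0.78, and SEC11C, a signal peptidase subunit, by 0.16 to 0.33. SEC24D, a cargo adaptor of the COPII coat, differed by 0.31 to 0.75, and WFS1, the membrane protein wolframin, by 0.23 to 0.71. By class, the risen members in CGG cells were 0 of 5 sensors and factors, 6 of 16 folding genes, 1 of 9 degradation genes and 0 of 4 transport genes. Of all clusters tested, 0.504% rose in CGG cells. In CGG cells with overexpression, 9 of the 16 folding genes rose, where 0.732% of all clusters tested did. The classes were not tested against each other.

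**Figure D4:**
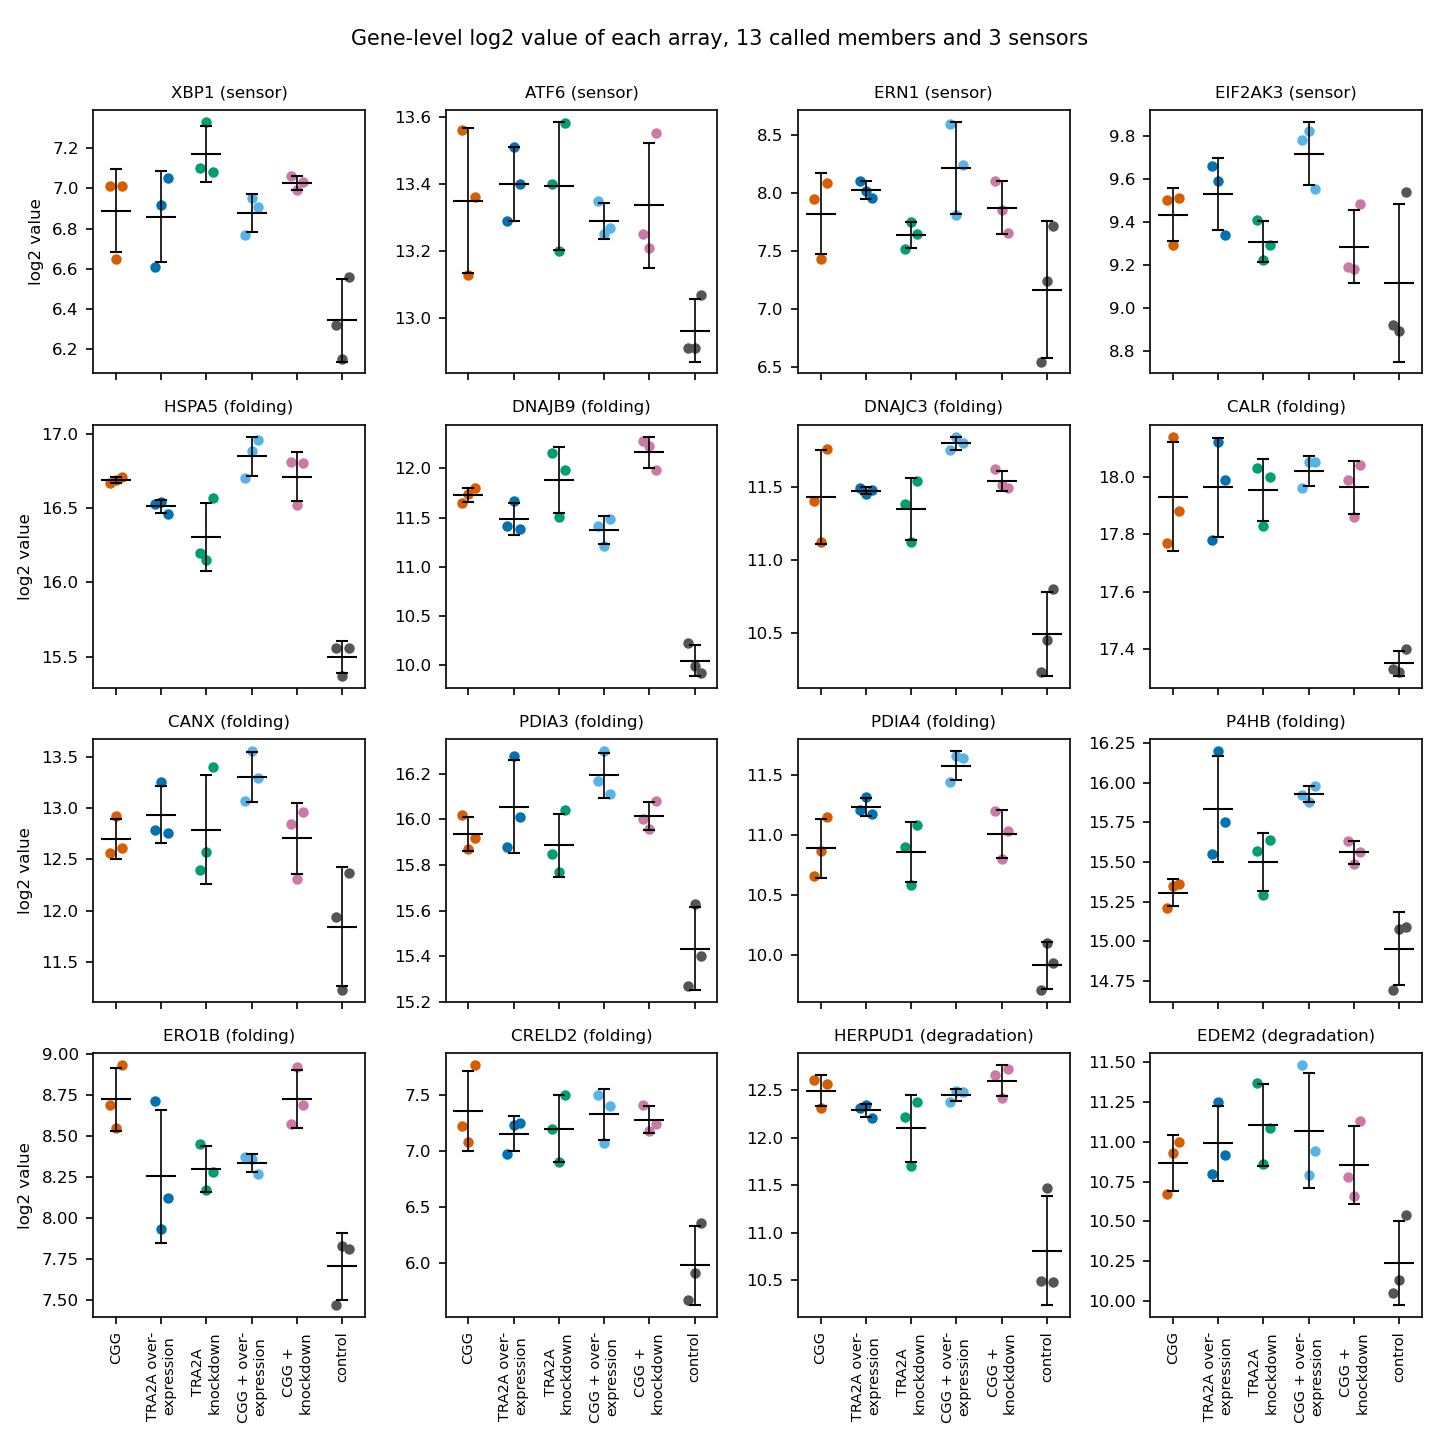
Log2 value of each array for the 13 members called in a comparison with control and for the sensors ERN1, ATF6 and EIF2AK3, in the 5 other groups and in controls at the right; points are arrays, and bars give the mean and SD of 3. For HSPA5, DNAJB9 and PDIA4 all points lie above the controls, while for ERN1 and EIF2AK3 control array 3 reaches into the other groups.

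Adding TRA2A overexpression or knockdown to CGG cells, or CGG to cells with altered TRA2A, moved no member past the test. Of 34 members, 0 were called in each of these 4 comparisons, by limma with either variance model run. Over all clusters tested, 0.0383% were called in CGG cells with overexpression against CGG cells, 0.147% in CGG cells with knockdown against CGG cells, 0.0059% in CGG cells with overexpression against overexpressing cells, and 0% in CGG cells with knockdown against knockdown cells. An unadjusted p under 0.05 was met by 4, 3, 1 and 3 members, with no share over all clusters counted. PDIA4 had the largest of these differences in CGG cells with overexpression against CGG cells, 0.69 (limma, adjusted p = 0.240). In CGG cells with knockdown against CGG cells, OS9 differed by -0.51 and PDIA6 by -0.45. The median member differed by 0.08 and 0.04 in the comparisons with CGG cells, and by 0.12 and 0.05 in those with overexpressing and knockdown cells.

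Among the 34 members tested, DNAJB9 alone had a CGG difference that differed by the test with altered TRA2A. An interaction subtracts the CGG difference without altered TRA2A from the CGG difference with it, so it uses the controls too. Members that lie above controls by similar amounts in all 5 groups have a negative interaction by arithmetic. The counts of negative values therefore cannot separate such a shared rise from a CGG effect that depends on TRA2A. With overexpression, 32 of 34 members had a negative interaction, with a median of -0.46. The bright named genes had a median of -0.09, and 41.3% of them were above 0. With knockdown 32 of 34 members were negative, with a median of -0.49. There the bright named genes had a median of -0.13, and 37.4% of them were above 0. In each, 1 member was called, DNAJB9, where 0.246% of clusters were called with overexpression, 0.197% as lower, and 0.175% with knockdown, 0.13% as lower. An unadjusted p under 0.05 was met by 13 and 15 members, with no share over all clusters counted. For DNAJB9, CGG cells with overexpression differed from overexpressing cells by -0.12, and CGG cells from controls by 1.69, an interaction of -1.80 ± 0.26 SE (limma, adjusted p = 0.00383). CGG cells with knockdown differed from knockdown cells by 0.28, an interaction of -1.41 ± 0.26 SE (limma, adjusted p = 0.0265), which was lost without any of 7 of the 12 arrays used (adjusted p up to 0.0929) and with a term for rehybridised arrays (0.0812).

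Other members with large negative values did not pass in the main run. HERPUD1 had -1.52 with overexpression and -1.18 with knockdown (limma, adjusted p = 0.0592 and 0.179). CRELD2 had -1.20 and -1.29, and HSPA5 -0.86 and -0.79. In alternative runs of limma, HERPUD1 passed with overexpression under a 75th percentile filter (adjusted p = 0.0290) and a trended and robust variance (0.0229). HSPA5 passed in both interactions under that variance (limma, adjusted p = 0.0159 and 0.0345). EDEM3 and HYOU1 were the members above 0, at 0.20 and 0.04 with overexpression and 0.26 and 0.13 with knockdown. Both interactions share the CGG and control arrays. TRA2A itself fell by 1.37 in CGG cells with overexpression against overexpressing cells (limma, adjusted p = 0.0161), with an interaction of -1.31 (adjusted p = 0.0472), so those groups differ in TRA2A level as well as in CGG.

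**Figure D5:**
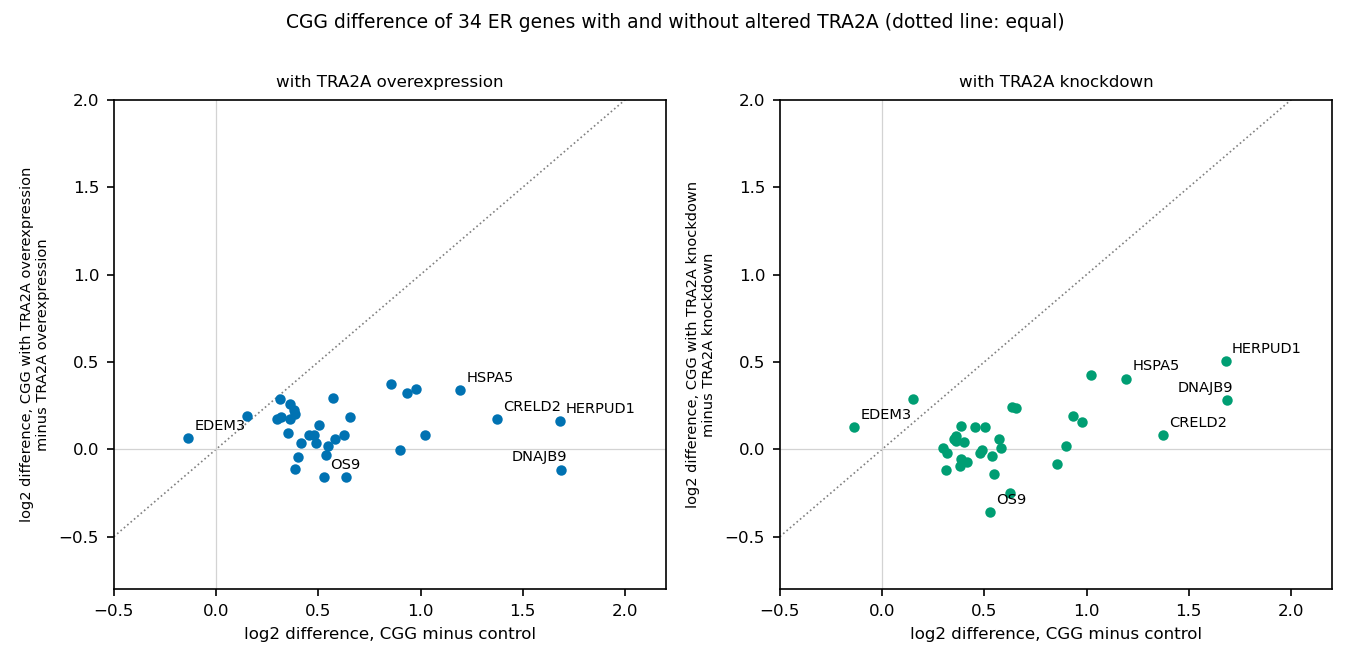
Log2 CGG difference of the 34 members in cells with altered TRA2A (vertical, overexpression at the left and knockdown at the right) over that without (horizontal, CGG cells minus controls); the dotted line marks equal differences. All but EDEM3 and HYOU1 lie below the dotted line, DNAJB9 farthest, at -0.12 and 0.28 beside 1.69. A rise by similar amounts in all groups other than controls places a point below that line by arithmetic.

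Genes outside the list that are tied to the same compartment or to its stress response were counted in 8 further lists, 168 genes in all. These lists too were chosen with earlier results of these data known, so their shares are descriptions. Of 14 measured genes of the arm that PERK and the transcription factor ATF4 control, 5 rose in CGG cells, 6 with overexpression, 4 with knockdown, 8 in CGG cells with overexpression and 3 in CGG cells with knockdown, and none fell. Over all clusters tested, 0.504%, 0.949%, 1.13%, 0.732% and 0.682% rose in that order. DDIT3, the stress-induced transcription factor CHOP, read 7.84, 8.24 and 8.70 in CGG cells, 8.21, 8.08 and 8.08 in overexpressing cells, 7.72, 7.47 and 7.35 in knockdown cells, 8.67, 8.17 and 8.97 in CGG cells with overexpression and 8.47, 8.63 and 7.97 in CGG cells with knockdown, against 5.70, 5.68 and 6.03 in controls. Its changes were 2.46, 2.32, 1.71, 2.80 and 2.55 in that order of groups. ATF3, a related stress factor, changed by 1.20 in CGG cells, 1.10 with knockdown, 0.95 in CGG cells with overexpression and 1.05 in CGG cells with knockdown. PPP1R15A, the phosphatase subunit that restores translation, changed by 1.05 in CGG cells, 1.06 with overexpression, 1.04 with knockdown, 1.32 in CGG cells with overexpression and 1.31 in CGG cells with knockdown. CHAC1, a glutathione-degrading enzyme, changed by 1.33 with overexpression and 1.83 in CGG cells with overexpression. In each interaction of CGG with altered TRA2A, 1 of these 14 genes was called lower. Over all clusters tested, 0.197% were called lower with overexpression and 0.13% with knockdown. The lowest interaction in the arm was -1.98 with overexpression and -1.61 with knockdown.

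Of 21 translocon and signal peptidase genes, 0 rose in CGG cells, 2 with overexpression, 1 with knockdown and 2 in each combined group, so 9.52% with overexpression, where 0.949% of all clusters rose. SRPRA, the signal recognition particle receptor, rose by 1.06 with overexpression, 1.29 with knockdown, 0.95 in CGG cells with overexpression and 1.19 in CGG cells with knockdown. Of 28 other degradation genes, 0 rose in CGG cells, 3 with overexpression, 3 with knockdown, 1 in CGG cells with overexpression and 2 in CGG cells with knockdown, so 10.7% with overexpression and with knockdown. Of all clusters tested, 0.949% rose with overexpression and 1.13% with knockdown. ERLIN2, which helps degrade the inositol trisphosphate receptor, rose by 1.12 with overexpression, 1.12 with knockdown, 0.93 in CGG cells with overexpression and 0.90 in CGG cells with knockdown, and YOD1, a deubiquitinase that acts with the ATPase VCP, by 0.96 with knockdown and 1.16 in CGG cells with knockdown. FAF2, named after its values were seen, fell by 0.67 with knockdown.

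Of 21 genes of N-glycosylation and glycan trimming, the glucosidase MOGS alone rose, by 1.03 with overexpression. That is 4.76% of the list, where 0.949% of all clusters and 3.13% of bright named genes rose with overexpression. Among 21 other folding factors, the prolyl isomerase PPIB rose by 0.68 with overexpression and 0.77 in CGG cells with overexpression, and ERP29, a disulfide isomerase relative, by 0.87 in CGG cells with knockdown. Of 20 genes of the COPII coat and exit from the endoplasmic reticulum, PREB, which loads the coat's GTPase, rose by 0.82 with overexpression. Among 19 further stress regulators none rose, and in CGG cells the smallest p belonged to the calcium channel ITPR3, with a difference of 0.84. Of 6 transcripts that IRE1 cuts in other cells, the collagen gene COL6A1 was higher by 1.13 in CGG cells and 1.04 with knockdown, and SPARC, a matrix glycoprotein, by 1.13 with knockdown and 0.91 in CGG cells with knockdown, and none fell. Of all clusters tested, 0.504% rose in CGG cells, 0.949% with overexpression and 1.13% with knockdown. In CGG cells with overexpression 0.732% rose, and in CGG cells with knockdown 0.682%. Of the bright named genes, 1.61%, 3.13%, 3.98%, 2.49% and 2.4% rose in that order. The medians of the 7 lists other than the PERK and ATF4 arm were 0.14 to 0.30 in CGG cells, where all clusters tested had -0.01 and bright named genes 0.10.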

How the data were processed

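RNA of 18 COS-7 samples was measured on Clariom D Human arrays. The authors deposited log2 values made with RMA in Transcriptome Analysis Console, per the submitters' processing notes, as SST-RMA signals per the file headers, at gene level and at exon level. Versions and the genome build are not given in the sources used here. The arrays hold human probes, so monkey mismatches can lower a signal, and their number limits the precision. Groups came from the samples' labels. The 36 members and the further lists were chosen with earlier results of these data known. Each gene was read from its highest-mean cluster carrying that symbol alone, and 19 listed symbols outside the members had no such match. A limma 3.58.1 model (R 4.3.3, the package data.table, version 1.17.8) of 6 group means over 18 arrays gave 9 pairwise comparisons and 2 interactions over the 67854 clusters with a mean above the median, 4.141. P-values were adjusted by Benjamini-Hochberg over all of them, with a threshold of 0.05. Exon features (mean above 7.462, at least 3 per gene) were tested after subtracting the gene's value. Scripts were tested on simulated data. Values in all arrays are given for sensors and for members called against control, and up to 3 called genes per further list and comparison are named. Alternatives were no filter, a 75th percentile filter, quantile normalization, other variance models, a replicate block, a rehybridisation term, each array left out and, chosen after seeing the data, another HYOU1 cluster. No sequence is shown.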

Additional observations from a re-analysis of the deposited data

Results flagged for a closer look

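DNAJB9, the HSPA5 partner ERdj4, had a CGG difference that was smaller in cells with altered TRA2A than in cells without. The test of this contrast gave an interaction of -1.80 ± 0.26 SE with overexpression (limma, adjusted p = 0.00383) and -1.41 ± 0.26 SE with knockdown (limma, adjusted p = 0.0265). CGG cells with overexpression differed from overexpressing cells by -0.12, CGG cells with knockdown from knockdown cells by 0.28, and CGG cells from controls by 1.69. Both interactions use the same CGG and control arrays. DNAJB9 was above controls by 1.44 with overexpression, 1.84 with knockdown, 1.33 in CGG cells with overexpression and 2.12 in CGG cells with knockdown. A rise by similar amounts in all 5 groups makes both interactions negative by arithmetic. Whether the CGG effect depends on TRA2A, apart from such a shared rise, was not tested. With overexpression the call held without each of the 12 arrays in turn, with adjusted p up to 0.0187. With knockdown it was lost without any of 7 of the 12 arrays, with adjusted p up to 0.0929. TRA2A itself fell by 1.37 in CGG cells with overexpression against overexpressing cells (limma, adjusted p = 0.0161).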

How the results depend on the processing

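No direction reversed in any alternative run. Without a filter, EDEM2 with knockdown and CALR in CGG cells with overexpression were not called (limma, adjusted p = 0.0785 and 0.0665). With quantile normalization, EDEM2 with knockdown and PDIA3 in CGG cells with overexpression were not called (limma, adjusted p = 0.0770 and 0.0501). Quantile normalization added a call of SDF2L1 in CGG cells (limma, adjusted p = 0.0356). With the variance taken from the compared arrays alone, the members called against control were 1 in CGG cells, 1 with overexpression, 1 with knockdown, 2 in CGG cells with overexpression and 2 in CGG cells with knockdown, and 0 in the interaction with knockdown. Over all clusters tested, 55, 33, 135, 40 and 87 were called against control in that order of groups, in either direction. The main run called 454, 846, 1049, 605 and 665. A trended and robust variance gave 12 in CGG cells, 11 with overexpression and 12 with knockdown. In CGG cells with overexpression it gave 15, and in CGG cells with knockdown 10. It gave 3 in the interaction with overexpression (HSPA5, DNAJB9 and HERPUD1) and 2 in that with knockdown (HSPA5 and DNAJB9). Over all clusters tested, that variance called 783, 1714, 1529, 1192 and 990 against control in the same order of groups. A 75th percentile filter gave 9 in CGG cells, 11 with overexpression and 10 with knockdown. With that filter there were 16 in CGG cells with overexpression, 10 in CGG cells with knockdown and 2 in the interaction with overexpression. Of the 33934 clusters past that filter, 810, 1891, 1669, 1356 and 1051 were called against control in the same order of groups. A rehybridisation term gave 0 in the interaction with knockdown (DNAJB9 -1.40, adjusted p = 0.0812) and 1 XBP1 feature in CGG cells, and it ended the calls of DNAJC3 in CGG cells (0.0502) and with knockdown (0.0514), EDEM2 with knockdown (0.0590) and CALR in CGG cells with overexpression (0.0509), for counts of 6, 6 and 9 in those groups. Over all clusters tested, 389, 907 and 585 were called in those groups with this term. The cause of these shifts was not tested. Leaving out each array gave 4 to 8 members in CGG cells, 4 to 9 with overexpression, 4 to 9 with knockdown, 6 to 13 in CGG cells with overexpression, 6 to 9 in CGG cells with knockdown, 1 to 2 and 0 to 2 in the interactions with overexpression and knockdown, and 0 to 1 XBP1 features in CGG cells. Over all clusters, such runs called 179 to 703 in CGG cells, 188 to 1524 with overexpression and 481 to 1319 with knockdown. In CGG cells with overexpression they called 154 to 1218, and in CGG cells with knockdown 323 to 897. The count of members was 4 without control array 1 or CGG array 3 in CGG cells, without control array 1 or overexpression array 2 or 3 with overexpression, and without control array 1 or knockdown array 3 with knockdown, and 6 without control array 1 or array 1 or 3 of CGG cells with overexpression. With the replicate number as a block the counts were 7, 7, 7, 9 and 7, EDEM2 with knockdown (adjusted p = 0.0647) and CALR in CGG cells with overexpression (adjusted p = 0.0628) were lost, and no other call of a member against control was. Over all clusters tested, the run with the block called 433, 816, 1016, 541 and 588 in that order. No comparison had a correlation of deviations over 0.1 in every same-numbered pair, though with overexpression all 3 were above 0 (0.0157 to 0.0605) and above those of other pairs (-0.0722 to 0.0107). With the mapped HYOU1 cluster the counts were 8, 8, 8, 11 and 8.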

Other observations

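A few genes of the further lists, outside the 36, were lower where TRA2A was knocked down. TMX1, a membrane-bound thioredoxin-like protein, read 13.01, 13.22 and 13.10 in knockdown cells and 13.41, 13.26 and 13.29 in CGG cells with knockdown, against 14.48, 14.25 and 14.43 in controls. It fell by 1.28 with knockdown and by 1.07 in CGG cells with knockdown (limma, adjusted p = 8.8e-05 and 0.000653), and by 1.05 in CGG cells with knockdown against CGG cells. The arrays with knockdown did not overlap the controls.

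SEC22B, a vesicle fusion protein between the endoplasmic reticulum and the Golgi, read 12.44, 12.44 and 12.11 in knockdown cells and 12.39, 12.35 and 12.48 in CGG cells with knockdown, against 13.12, 13.22 and 13.39 in controls. It fell by 0.91 with knockdown and by 0.84 in CGG cells with knockdown (limma, adjusted p = 0.00656 and 0.0170). MBTPS1, the Golgi protease that cuts ATF6, read 10.93, 10.86 and 11.00 in knockdown cells and 10.60, 10.79 and 10.70 in CGG cells with knockdown, against 11.71, 11.65 and 11.98 in controls. It fell by 0.85 with knockdown and by 1.08 in CGG cells with knockdown (limma, adjusted p = 0.0122 and 0.00212).

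Over the 6 group means, the named genes with the pattern most like XBP1 were SCAMP3, STN1, TM4SF19-DYNLT2B, MICB and UBR3, with Pearson's r of 0.995 to 0.999 among 23835 genes. Those most like HSPA5 were DDIT3, GTPBP8, CCDC182, RPL10AP6 and STAT3, with r of 0.99 to 0.996. These are descriptions of 6 points that share their arrays.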
